A study of Homo sapiens with 4 samples.

Results

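The ADAMTS proteases are secreted zinc metalloproteinases that carry thrombospondin type 1 repeats and cut proteins of the extracellular matrix. They are made as inactive precursors, are activated when furin-type convertases remove the prodomain, and are held in check by tissue inhibitors of metalloproteinases (TIMPs). In brain and in glioma the family is best known for cutting the hyaluronan-binding proteoglycans, such as versican and brevican, that fill the space between cells. Other members trim procollagens, process the lymphatic growth factor VEGF-C, or act on fibrillin microfibrils.

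Expression was followed here for 10 ADAMTS genes (ADAMTS1, ADAMTS2, ADAMTS3, ADAMTS4, ADAMTS5, ADAMTS6, ADAMTS9, ADAMTS10, ADAMTS12 and ADAMTS15) out of 18132 genes on the array. They were selected on a readout that includes the comparison described below, so their differences are a description: the count of calls is given beside that of all genes, and no p-value is given for any of them. A probe set, the group of short probes that reads a transcript, was taken when its annotation gave exactly 1 of these symbols, which held for 22 of 44988 probe sets with a single symbol. A gene is represented by its brightest probe set, and the others are given beside it. Values are log2 units, so a difference of 1 is a doubling, and levels of different probe sets are not comparable with each other.

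The samples were 4 cultures of U87MG, an established human glioblastoma line, each read on 1 PrimeView array. All were grown at 0.2% oxygen. In 2 of them the cells carried a PCMV control vector, and in the other 2 a vector for overexpression of NeuroD2, a neurogenic transcription factor; RNA was taken 48 hours after transfection. All comparisons rest on 1 cell line, and the labels name neither a selection for transfected cells nor the share of cells that took up the vector. The labels call the arrays of a group biological replicates without saying how the cultures were separated, so SDs measure the spread between these samples. Standard errors come from a fit (limma) that draws the spread of each gene toward that of all genes. In bulk RNA a change in transcript per cell and a change in the share of cells that express a gene cannot be told apart.

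NEUROD2 read 5.46 and 5.35 with the control vector and 7.37 and 7.82 with the NeuroD2 vector on the brightest of its 3 probe sets, while both other probe sets were slightly lower with the NeuroD2 vector. Of 8 markers of glioma cells, VIM, CD44, ANXA1, S100A6 and SPP1 read between 12.7 and 14.2 on every array. NES differed by -0.25 without passing, and CHI3L1 (-0.51, adjusted p = 0.0383) and FN1 (-0.63, adjusted p = 0.0318) fell in limma's fit over all genes. GFAP, the intermediate filament of astrocytes, lay between 6.07 and 6.35, and there was no detection call with which to say whether it was present. Of the 5 astrocyte markers only the glutamate transporter gene SLC1A3 passed limma's test, and it fell (-0.41, adjusted p = 0.0409). GFAP (0.24, adjusted p = 0.133) and S100B (0.18, adjusted p = 0.232) were higher without overlap between the groups and did not pass. AQP4 and ALDH1L1 overlapped. The mean level of 5 white blood cell markers ran from 5.57 to 5.71 on the control arrays and from 5.66 to 5.67 on the NeuroD2 arrays. For 4 endothelial markers the ranges were 4.64 to 4.72 and 4.64 to 4.78, and for 4 epithelial markers 4.45 to 4.51 and 4.43 to 4.57. In these 3 lists 0 markers passed limma's test, and 5 had an unadjusted p below 0.05. Such a p was found for 3946 of all 18132 genes, the share to set beside this count and those of the lists below. Of the 5, PTPRC (0.40) and KRT18 (0.27) were higher, and ITGAM (-0.25), CD3E (-0.21) and EPCAM (-0.29) were lower. The means hide such opposite differences and pool probe sets of unlike level. CD68 read 10.07 to 10.21 and PTPRC 2.95 to 3.53. The hybridisation spikes, control RNAs added to every array, averaged 9.56 and 9.90 on the control arrays and 10.10 and 10.13 on the NeuroD2 arrays. The poly-A spikes, added before labelling, had a mean of 6.95 on the first control array against 7.98, 7.96 and 8.03 elsewhere. Their group difference of 0.53 was 0.02 once that array was left out. The part of either in the differences below was not tested.

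With the NeuroD2 vector, transcripts of ADAMTS5 and ADAMTS6 were higher, and those of ADAMTS12 were lower. ADAMTS1 and ADAMTS2 were higher by smaller amounts, 0.31 and 0.27 on the brightest probe set, without overlap between the groups. In the other 5 genes the groups overlapped on the brightest probe set. The fit over all genes called 3 of the 10 (limma, Benjamini-Hochberg adjusted p below 0.05): ADAMTS5 and ADAMTS6 as higher and ADAMTS12 as lower. Among all genes 4.77% were called, 1.81% as higher and 2.96% as lower. As the 10 genes were chosen with this contrast in view, nothing is read from their larger share. With each of the 4 arrays left out in turn, fewer of the 10 were called, and fewer genes over the whole table as well. ADAMTS12 was not called in any of these 4 fits, nor with the mean of probe sets or every probe set tested on its own. The arrays of both groups did not overlap in 5 of the 10 genes, beside 50.8% of all genes. The median difference was 0.12 for the 10 and 0.00 for all genes, and the median absolute difference was 0.20 against 0.11.

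**Figure D1:**
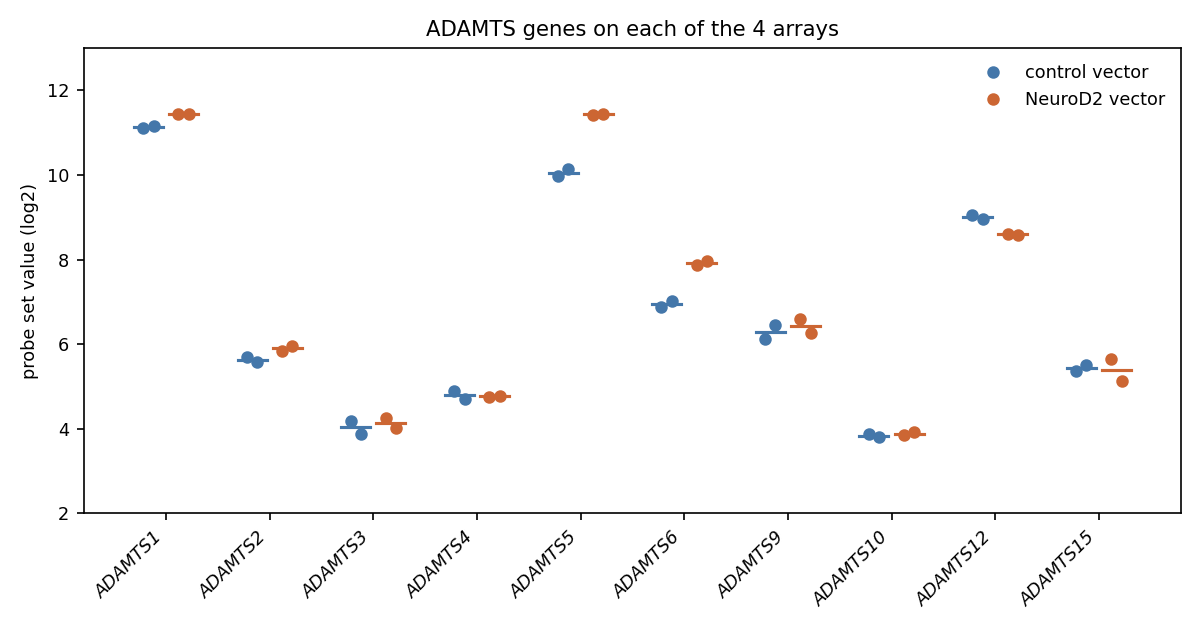
Probe set values (log2, vertical axis) of the 10 ADAMTS genes on the 4 arrays, each gene on its brightest probe set; points are arrays, short lines are group means, blue is the control vector and orange the NeuroD2 vector. The groups are clearly apart for ADAMTS5 (10.06 against 11.44) and ADAMTS6 (6.95 against 7.92), ADAMTS12 lies lower with the NeuroD2 vector (9.01 against 8.59), and levels of different genes should not be compared.

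**Figure D2:**
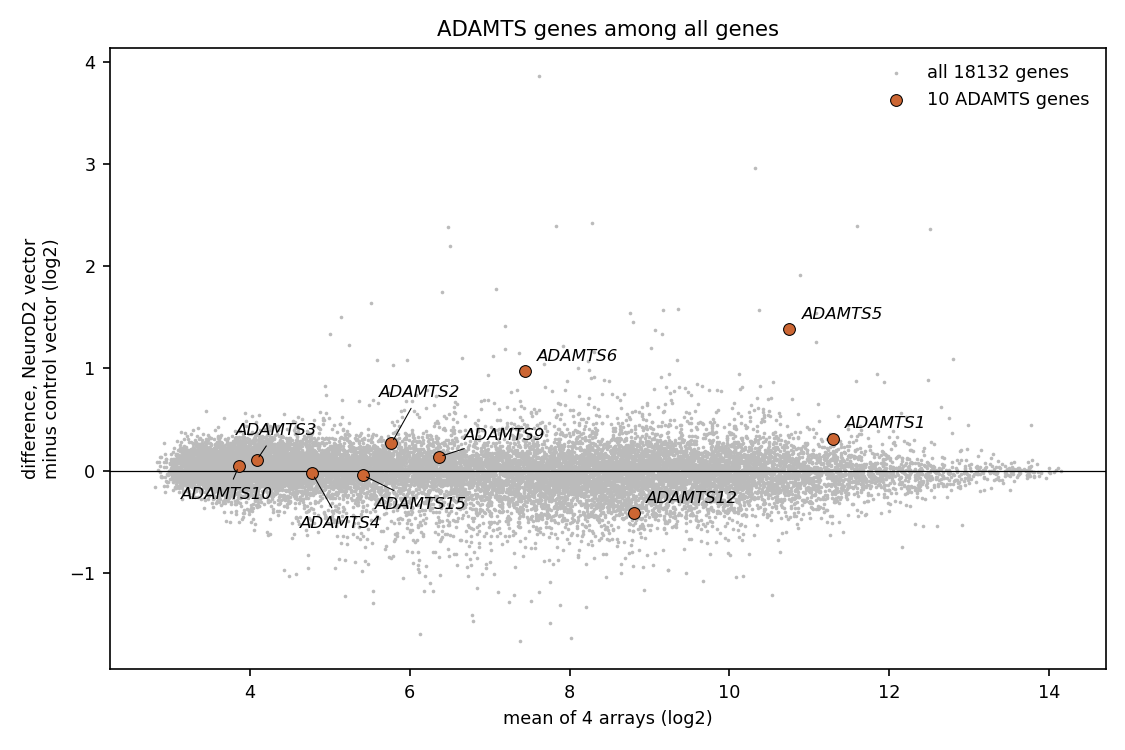
Difference between the groups (log2, vertical axis) against the mean of the 4 arrays (log2, horizontal axis) for all 18132 genes in grey, with the 10 ADAMTS genes in orange. ADAMTS5 (1.38) and ADAMTS6 (0.97) stand above the bulk of genes, and ADAMTS4, ADAMTS10 and ADAMTS15 lie near 0.

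Among the proteases that cut hyaluronan-binding proteoglycans, ADAMTS5, one of the main aggrecan-cutting enzymes, showed the widest difference. Its brightest probe set (11726856_at) read 9.98 and 10.14 on the control arrays and 11.43 and 11.45 on the NeuroD2 arrays. Both NeuroD2 arrays were thus above both control arrays, and the gap between groups was many times the gap within them. The means were 10.06 ± 0.11 and 11.44 ± 0.02 (SD, n = 2 each), a difference of 1.38 with a standard error of 0.09, or 2.61-fold. Of the 18132 genes, 21 had a difference at least this large, ADAMTS5 included.

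The other 3 probe sets of ADAMTS5 differed in the same direction. The second (11726855_at) went from 9.22 and 9.41 to 10.59 and 10.64, a difference of 1.30. The third (11726854_s_at) went from 8.61 and 8.68 to 10.07 and 10.10, a difference of 1.44. The dimmest (11726857_at) went from 6.91 and 6.84 to 7.80 and 7.82, a difference of 0.93. Groups did not overlap on any of the 4, and the mean of the 4 probe sets differed by 1.26. Leaving out each array in turn moved the difference of the brightest probe set between 1.30 and 1.46.

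The genes whose 4 values moved most like those of ADAMTS5, by Euclidean distance after each gene was centred on its own mean over the 4 arrays, were PRDM1, IL6 and CCL20. PRDM1, a transcriptional repressor that acts in lymphocyte differentiation, lay at a distance of 0.08 and differed by 1.42. IL6, which encodes interleukin-6, lay at 0.09 and differed by 1.37, and the chemokine gene CCL20 lay at 0.14 and differed by 1.33. With 4 arrays this likeness says little more than that the sizes of the differences were alike.

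ADAMTS1, which cuts versican and aggrecan, is the gene next to ADAMTS5 on chromosome 21 in the order of RefSeq protein-coding genes. Its brightest probe set (11754662_s_at, a kind that can read transcripts of more than 1 gene) gave 11.11 and 11.16 with the control vector and 11.45 and 11.45 with the NeuroD2 vector. The arrays of each group lay close together and the groups did not overlap. The difference was 0.31 with a standard error of 0.07, or 1.24-fold. The second probe set (11732158_a_at) went from 9.06 and 8.96 to 9.22 and 9.31, a difference of 0.26. The gene on the other side of ADAMTS1, CYYR1, differed by -0.20 (adjusted p = 0.524, limma).

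ADAMTS4 is the other main aggrecan-cutting enzyme. Its probe sets, both of the kind x_at that can match more than 1 gene, differed by -0.03 and -0.04. The brighter read 4.89 and 4.70 with the control vector and 4.76 and 4.77 with the NeuroD2 vector, so the groups overlapped. ADAMTS9, which cuts versican and aggrecan, read 6.13 and 6.46 against 6.59 and 6.27. That difference of 0.13 was smaller than the gap within either group, and it ran from -0.03 to 0.30 when arrays were left out. The second probe set of ADAMTS9 differed by -0.14, without overlap between the groups. ADAMTS15, which cuts versican, read 5.37 and 5.50 against 5.65 and 5.12, again with overlap. Its difference of -0.04 ran from -0.31 to 0.22 when arrays were left out. On the second probe set it was 0.11, also with overlap, and the mean of both differed by 0.04.

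ADAMTS6 belongs with ADAMTS10 to the members that act on fibrillin microfibrils and cell junctions. The 250 bases before its start are shown together with those of ADAMTS12, because these are the members with the widest difference in each direction among the 5 of the 10 genes for which the RefSeq promoter table (GRCh38.p14) holds an entry. Capitals mark E-boxes, the CANNTG letters recognised by basic helix-loop-helix factors, the family to which NeuroD2 belongs. Which forms of these letters NeuroD2 recognises was not tested. The motif reads alike on both strands. Both stretches lie on the minus strand, at chr5:65481921-65482170 for ADAMTS6 and chr5:33891991-33892240 for ADAMTS12, and are written 5′ to 3′.
ADAMTS6: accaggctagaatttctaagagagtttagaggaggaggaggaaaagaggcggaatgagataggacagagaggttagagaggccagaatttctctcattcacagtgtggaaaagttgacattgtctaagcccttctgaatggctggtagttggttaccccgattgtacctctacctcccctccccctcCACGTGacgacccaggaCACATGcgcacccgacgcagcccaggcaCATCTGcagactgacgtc
ADAMTS12: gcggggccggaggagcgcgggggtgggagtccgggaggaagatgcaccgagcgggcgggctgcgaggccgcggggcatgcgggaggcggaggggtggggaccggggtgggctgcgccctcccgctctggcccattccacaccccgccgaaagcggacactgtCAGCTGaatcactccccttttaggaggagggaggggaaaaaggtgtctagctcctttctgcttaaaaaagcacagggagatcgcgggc

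The ADAMTS6 stretch held 3 E-boxes, and how many promoter entries hold that many was not counted. CACGTG began 63 bases before the start, CACATG began 46 bases before it and CATCTG began 18 bases before it. The ADAMTS12 stretch held 1, CAGCTG, which began 88 bases before the start. The entries for ADAMTS2 and ADAMTS3 and both entries for ADAMTS10 held none. Of 35116 promoter entries of the same length, 61.8% held at least 1 CANNTG, 12.2% held CAGATG or its reverse complement CATCTG, and 14% held CAGCTG; the last pair of shares counts letters that are also CANNTG. These matches describe letters, and no binding was measured.

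On its brighter probe set (11728612_at), ADAMTS6 read 6.87 and 7.02 with the control vector and 7.88 and 7.97 with the NeuroD2 vector. Both NeuroD2 arrays were above both control arrays by more than the gap within a group. The means were 6.95 ± 0.11 and 7.92 ± 0.06 (SD, n = 2 each), a difference of 0.97 with a standard error of 0.09, or 1.97-fold. Among all genes 44 had a difference at least as large, ADAMTS6 included. The dimmer probe set (11752137_a_at) read 4.30 and 4.17 against 4.77 and 4.32, where 1 NeuroD2 array was close to the controls, and differed by 0.30. The mean of both differed by 0.64. ADAMTS10, which binds fibrillin-1, was read on 1 probe set at 3.87 and 3.81 against 3.84 and 3.93, with overlapping groups and a difference of 0.05.

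ADAMTS12, a relative of ADAMTS7 that cuts cartilage oligomeric matrix protein (COMP), differed in the other direction. The brighter probe set (11744664_a_at) read 9.05 and 8.97 with the control vector and 8.61 and 8.58 with the NeuroD2 vector. Both NeuroD2 arrays lay below both control arrays. The means were 9.01 ± 0.06 and 8.59 ± 0.02 (SD, n = 2 each), a difference of -0.42 with a standard error of 0.08. A difference at least as far below 0 was measured for 688 genes, ADAMTS12 included. The dimmer probe set (11741341_a_at) did not show it, with 4.58 and 4.48 against 4.53 and 4.58, so the mean of both differed by only -0.19.

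Of the procollagen proteases, ADAMTS2 is the main remover of the amino-terminal propeptide of type I procollagen. It read 5.69 and 5.59 against 5.84 and 5.97 on its brighter probe set (11743205_x_at, a kind that can match more than 1 gene). The groups did not overlap there and the difference was 0.27, from 0.20 to 0.33 when arrays were left out, but on the second probe set they overlapped and it was 0.08, which gives 0.17 for the mean of both. ADAMTS3, which trims procollagen II and, with the cofactor CCBE1, releases active VEGF-C, read 4.18 and 3.88 against 4.26 and 4.01. Its 3 probe sets differed by 0.10, -0.04 and 0.13, and the difference of the brightest ran from -0.05 to 0.25 when arrays were left out. Across the 12 probe sets of ADAMTS2, ADAMTS3, ADAMTS4, ADAMTS9, ADAMTS10 and ADAMTS15, values ran from 3.11 to 6.59 and differences from -0.14 to 0.27.

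**Figure D3:**
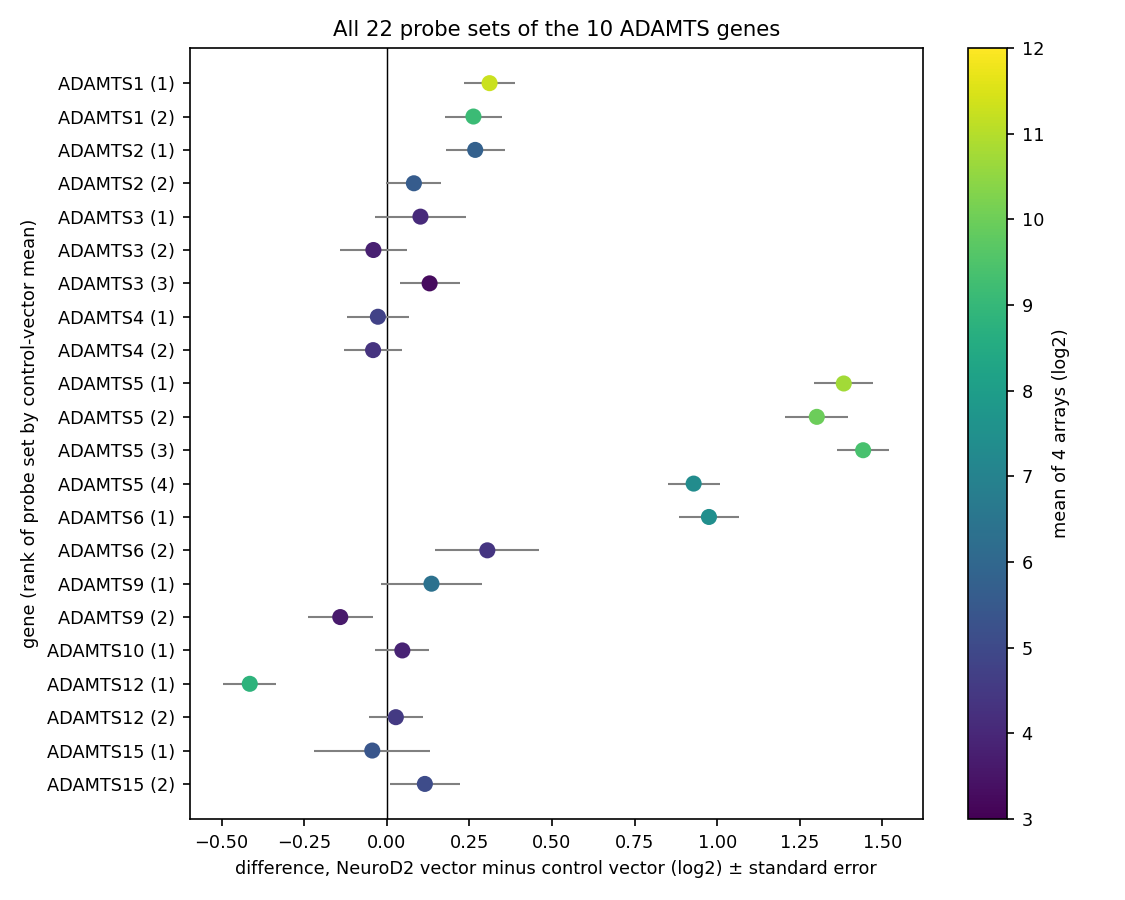
Difference between the groups (log2, horizontal axis) for all 22 probe sets of the 10 ADAMTS genes, numbered within a gene by control-vector mean; bars are limma standard errors and colour is the mean of the 4 arrays. All 4 probe sets of ADAMTS5 lie between 0.93 and 1.44, whereas ADAMTS6 and ADAMTS12 have their wider difference on the brighter of 2 probe sets.

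Of the other ADAMTS proteases, 8 were measured and ADAMTS7 was not analysed here. ADAMTS18, a protease of less well known substrates, rose and the other 7 did not pass, with a median over the 8 of 0.03. It read 7.21 and 7.36 with the control vector and 7.83 and 7.89 with the NeuroD2 vector, without overlap. The difference was 0.58 with a standard error of 0.09 (adjusted p = 0.0267, limma over all genes). On its 4 probe sets differences ran from -0.02 to 0.58, and the mean of the 4 differed by 0.37. The 7 that did not pass differed by -0.11 to 0.20, among them ADAMTS14, the third procollagen trimmer, at 0.05. The ADAMTS-like proteins, which share the thrombospondin repeats but lack the protease domain, included 0 of 7 that passed limma's test, and 1 had an unadjusted p below 0.05 (median -0.04). Their widest differences were -0.20 for THSD4 (adjusted p = 0.191) and 0.16 for ADAMTSL5 (adjusted p = 0.401). Of 11 membrane-anchored ADAM proteases, the adhesion gene ADAM23 fell by 0.42 (adjusted p = 0.0418) and 10 did not pass, with a median of -0.16. The ADAM23 call was lost when every probe set was tested on its own.

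The hyaluronan-binding proteoglycans and their link proteins, the substrates that ADAMTS5, ADAMTS4 and ADAMTS1 share, showed no call: 0 of 8 passed limma's test and 0 had an unadjusted p below 0.05, with a median of -0.03. The versican gene VCAN read 11.00 and 10.94 against 10.83 and 10.88, a difference of -0.11. The widest differences were -0.19 for HAPLN3 (adjusted p = 0.637), whose brightest probe set read 6.03 and 5.45 on the control arrays, and 0.12 for HAPLN2 (adjusted p = 0.533). The other 2 probe sets of HAPLN3 differed by -0.40 and -0.43 without overlap, and the mean of its 3 probe sets by -0.34, which did not pass. Without control replicate 1 the brightest one differed by 0.10. Of 18 other matrix substrates and partners, 3 fell and 1 rose, with a median of 0.02, and 8 had an unadjusted p below 0.05. LUM, which encodes the small proteoglycan lumican, read 7.53 and 7.88 against 6.53 and 6.49 and fell by 1.19 (adjusted p = 0.0114). The basement membrane gene NID2 fell by 0.80 (adjusted p = 0.0102) and the fibronectin gene FN1 by 0.63 (adjusted p = 0.0318), lower on all 8 of its probe sets. TFPI2, a protease inhibitor that ADAMTS1 can cut, read 13.48 and 13.63 against 13.997 and 14.01 and rose by 0.45 (adjusted p = 0.0447), or 0.71 with the mean of its 3 probe sets. Its call was lost when every probe set was tested on its own. COMP, the ADAMTS12 substrate, differed by 0.12 (adjusted p = 0.466, limma). FBN1, which encodes the fibrillin that ADAMTS10 binds, differed by -0.38 without overlap between the groups (adjusted p = 0.0509, limma). Neither passed.

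Of 11 genes of procollagen chains and their processing, 5 fell and 6 did not pass, with a median of -0.31. PCOLCE2, an enhancer of procollagen C-proteinase, read 6.81 and 6.96 against 5.77 and 5.96 and fell by 1.02 (adjusted p = 0.0102). The chain genes COL5A1 (-0.83, adjusted p = 0.0096), COL5A2 (-0.71) and COL1A2 (-0.69, adjusted p = 0.0141) fell, and so did COL1A1 (-0.62), named after its value was seen. With the mean of its 6 probe sets COL5A2 differed by -0.43. The VEGF-C group, on which ADAMTS3 acts, had 0 of 4 genes past limma's test and 3 with an unadjusted p below 0.05 (median 0.23). VEGFC itself read 10.14 and 10.19 against 10.51 and 10.50, a difference of 0.34 (adjusted p = 0.058), and its receptor gene KDR differed by 0.40 (adjusted p = 0.0639). CCBE1 differed by -0.33.

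Regulators of ADAMTS activity moved in part. Of 6 genes of inhibitors and clearance, 2 fell and 4 did not pass, with a median of -0.21. TIMP1 differed in the other direction, at 12.45 and 12.31 against 12.64 and 12.69, without overlap. Its difference of 0.28 did not pass (adjusted p = 0.119, limma). TIMP4 read 9.29 and 9.0 against 8.07 and 8.22 and fell by 1.0 (adjusted p = 0.0161). TIMP2 read 10.50 and 10.44 against 9.89 and 9.96 and fell by 0.55 (adjusted p = 0.0236). TIMP3, the strongest TIMP against ADAMTS4 and ADAMTS5, read 4.89 and 4.46 against 4.24 and 4.69, and the groups overlapped. Of 6 genes of convertases and of enzymes that put the O-fucose glycan on thrombospondin repeats, B3GLCT, which adds the glucose to that fucose, fell by 0.48 (adjusted p = 0.0405) and 5 did not pass, with a median of -0.10. B3GLCT too was not called when every probe set was tested on its own. FURIN differed by -0.05.

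Over these 9 lists 14 of 79 genes passed limma's test, 2 higher and 12 lower, which is 17.7% beside 4.77% of all genes; the lists were drawn up with earlier results of these data known. Dropping control replicate 1 left 0 called and 30 with an unadjusted p below 0.05, and dropping control replicate 2 left 0 and 26. Dropping NeuroD2 replicate 1 left 0 and 22, and dropping NeuroD2 replicate 2 left PCOLCE2 as the 1 called gene and 25 with an unadjusted p below 0.05. In such fits the lone array of a group is taken to vary as the other group does. The differences of the 14 kept their direction in each of these fits, which was fixed beforehand because their groups did not overlap.

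**Figure D4:**
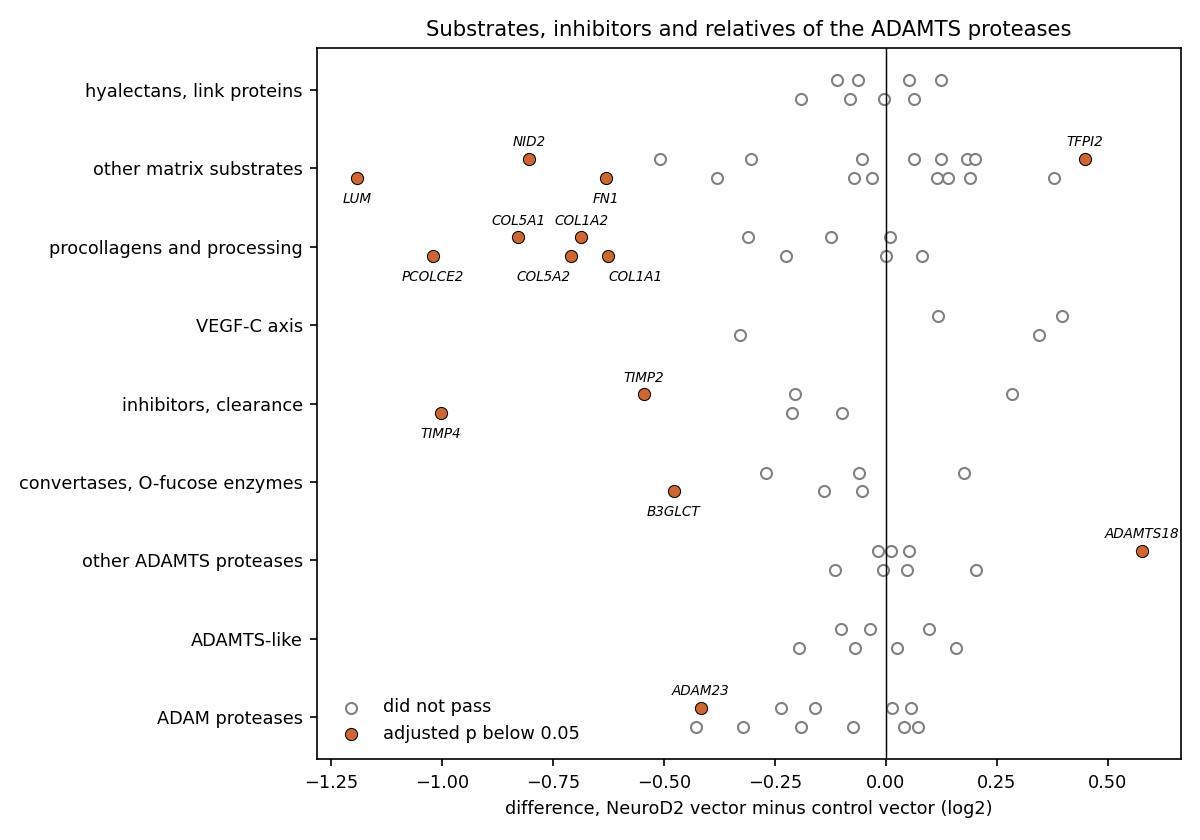
Difference between the groups (log2, horizontal axis) for the genes of 9 lists of substrates, regulators and relatives of the ADAMTS proteases; each point is a gene on its brightest probe set, filled where limma's adjusted p over all genes was below 0.05. Filled points lie mostly to the left, among matrix, procollagen and TIMP genes, while no hyaluronan-binding proteoglycan is filled and ADAMTS18 lies farthest right at 0.58.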

How the data were processed

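The values are the authors' deposited log2 probe set values of 4 PrimeView arrays, 49395 probe sets. The log2 scale and normalization between arrays are read from the values, which run from 2.65 to 14.3 with array medians of 5.98 to 5.99. Which software made these values, with which background and summary steps, is not given in the sources used here. No detection calls were used, so dim genes cannot be called absent. Per the labels' protocols, RNA was labelled with biotin. Probe sets were named through the platform annotation: 44988 had 1 symbol, 1832 several, 2473 none, and 102 were controls; 44961 were matched to RefSeq by Entrez ID. A gene was its probe set with the highest mean.

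Groups were compared with limma 3.58.1 in R 4.3.3 (lmFit and eBayes, group as the only term, two-sided), on 2 residual and 3.84 prior degrees of freedom, with Benjamini-Hochberg adjustment over 18132 genes and a threshold of 0.05. The fit was tested on simulated data. Standard errors of single probe sets come from the same fit over all single-symbol probe sets. The number of arrays limits the precision.

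The members and lists were chosen with earlier results of these data known. Named were all members, of each list up to 4 called genes with the largest absolute difference or the 2 widest where none was called, NEUROD2, and the 3 genes nearest to the member with the largest difference; other genes named were chosen after their values were seen. Tried as alternatives were quantile normalization, median centring, dropping each array in turn, a replicate block, an intensity trend or robust prior in eBayes, leaving out genes under the median level, averaging a gene's probe sets, and a fit over single probe sets.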

Additional observations from a re-analysis of the deposited data

Results flagged for a closer look

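The 18 hybridisation spike probe sets, which no comparison above uses, had a mean of 9.73 ± 0.24 with the control vector and 10.12 ± 0.02 with the NeuroD2 vector (SD, n = 2 each), and each of the 18 separated the groups. The mean difference of 0.39 became 0.22 when control replicate 1 was dropped and 0.56 when control replicate 2 was dropped.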

How the results depend on the processing

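Under the 12 alternatives the differences of ADAMTS5, ADAMTS6, ADAMTS1 and ADAMTS12 ranged over 1.26 to 1.46, 0.64 to 1.05, 0.29 to 0.33 and -0.46 to -0.19. In most of these settings the direction was fixed beforehand. The block, trend, prior, filter and single-probe-set fits leave the difference itself unchanged. Dropping 1 array cannot reverse groups that do not overlap, as in these genes. Median centring moves all genes by the same small amount (ADAMTS1 from 0.31 to 0.32), too little to reverse these. All probe sets of ADAMTS5, ADAMTS6 and ADAMTS1 were higher, so the direction of their mean was fixed too. Only quantile normalization and, for ADAMTS12, the mean of probe sets could have reversed a direction, and neither did. Leaving out arrays gave 0 to 66 called genes in all, 0 to 1 called members and 0 to 1 called related genes. With an intensity trend 2056 genes and 22 related genes were called, and with dim genes left out 2081 genes. With the replicate number as a block 335 genes, 2 members and 9 related genes were called; same-numbered arrays deviated together only weakly (r = 0.08 over genes, which are not independent), so the number is not taken to pair them. ADAMTS12 was the member no longer called with the block, with the mean of probe sets and with every probe set tested, and it was not called when any 1 array was left out. Of the 14 related genes, B3GLCT, TFPI2 and ADAM23 were not called with the block or with every probe set tested, and FN1 and TIMP2 not with the block. The cause of these changes was not tested. Quantile normalization, median centring and a robust prior left 3 members called, an intensity trend 4, the mean of probe sets 2 and testing every probe set 2; the filter kept 4 members and called all of them. The background probe sets averaged 2.91 and 2.94 (control and NeuroD2) at GC counts of 3 to 12, and 5.71 and 5.87 at 13 to 25. The members were not compared with background of their own GC content.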
